A study of Homo sapiens with 6 samples.

Results

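A set of 10 genes of protein folding and stress signalling in the endoplasmic reticulum (ER) were followed across all 6 arrays of the series. They are the lumenal chaperones *HSPA5*, *HSP90B1* and *CALR*, the chaperone partners *DNAJB9* and *SDF2L1*, the disulfide isomerase *PDIA4*, the degradation factors *HERPUD1* and *EDEM1*, and the transcription factors *XBP1* and *ATF6*. Members were taken by gene symbol: every probe set annotated to exactly 1 of the 10 symbols was used, which gave 35 probe sets. The rule itself uses no measured value, but the genes were picked with earlier results of these data known. The 10 genes stand among 18244 genes with a probe set of a single symbol. Total RNA came from SH-SY5Y, an established human neuroblastoma cell line with sympathetic neuronal features. The 3 arrays of the treated group came from cells transfected with an anti-miR against miR-137, and the 3 of the control group from cells given Anti-miR Negative Control #1, both at 15 pM with Lipofectamine RNAiMAX. Transfection followed 24 hours after seeding and RNA was taken 72 hours after it, and the study asked which mRNAs respond to the loss of miR-137. Arrays are numbered 1 to 3 in each group, and the labels do not say what a number marks or whether the arrays came from separate cultures. The p-values thus rest on the spread among the 6 arrays alone, some of which may be technical, and so few arrays limit the precision.

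The ER folds and modifies proteins that are secreted or inserted into membranes. When unfolded proteins accumulate there, the unfolded protein response is signalled by the sensors PERK, IRE1 and ATF6. IRE1 splices *XBP1* mRNA into the form that encodes an active transcription factor, and ATF6 is cut in the Golgi to release one. Both factors switch on chaperones, oxidoreductases and degradation factors, while PERK slows translation and induces ATF4. HSPA5 (BiP) binds the sensors when they are idle, and a rise of its mRNA is a common readout of the response. Splicing of *XBP1* and cleavage of ATF6 are not measured by the values used here.

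The treatment was directed at the microRNA whose mature strands are printed here with the seed, bases 2 to 8, in capitals (RefSeq, GRCh38.p14). They lie at chr1:98046091-98046113 and chr1:98046127-98046149 on the minus strand.
hsa-miR-137-3p: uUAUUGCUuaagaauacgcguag
hsa-miR-137-5p: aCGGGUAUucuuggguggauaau

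Promoters of the 10 genes were searched because ER stress elements are the known docking sites of ATF6 and XBP1 with the factor NF-Y. Windows of 300 bases, 250 before and 50 after the RefSeq gene start (GRCh38.p14), were found for all 10 genes, 12 windows in all since *XBP1* and *PDIA4* have 2 starts each. The ER stress element (ERSE) was searched as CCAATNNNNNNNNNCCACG on both strands. It was present in 4 of the 10 genes, *HSPA5*, *HSP90B1*, *XBP1* and *CALR*, and in 27 of 35116 windows of the whole table (0.0769%). The shorter ERSE-II, ATTGGNCCACG, was present in *HERPUD1* and *SDF2L1* and in 19 of all windows (0.0541%). The element TGACGTGG, bound by XBP1 and named UPRE here, was found in none of the 12 windows and in 0.729% of all windows. These percentages count windows, while the members are counted as genes. Chaperones and degradation factors are among the known targets of ATF6 and XBP1, so matches in the members are no independent finding. Enrichment was not tested. No member held both ERSE and ERSE-II, so no matches of different elements overlapped. No exact match was found for *DNAJB9*, *PDIA4*, *EDEM1* and *ATF6*, which says only that these letters are not in these windows.

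The full windows of *HSPA5* (chr9:125241294-125241593, minus strand) and *SDF2L1* (chr22:21642052-21642351, plus strand) are shown first, because these genes differed most between arrays. Stretches around the matches follow for *HSP90B1* (chr12:103930201-103930249 and chr12:103930306-103930354, plus strand), *XBP1* (chr22:28800588-28800636, minus strand), *CALR* (chr19:12938369-12938417, plus strand) and *HERPUD1* (chr16:56932010-56932050, plus strand). All are written in the direction of the gene, and capitals mark the element.
HSPA5 promoter: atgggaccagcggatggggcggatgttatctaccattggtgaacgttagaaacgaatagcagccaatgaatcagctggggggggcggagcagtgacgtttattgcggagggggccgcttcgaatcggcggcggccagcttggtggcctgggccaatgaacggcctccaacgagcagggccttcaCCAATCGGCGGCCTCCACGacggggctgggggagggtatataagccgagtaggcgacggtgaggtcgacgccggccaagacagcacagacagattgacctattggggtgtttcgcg
SDF2L1 promoter: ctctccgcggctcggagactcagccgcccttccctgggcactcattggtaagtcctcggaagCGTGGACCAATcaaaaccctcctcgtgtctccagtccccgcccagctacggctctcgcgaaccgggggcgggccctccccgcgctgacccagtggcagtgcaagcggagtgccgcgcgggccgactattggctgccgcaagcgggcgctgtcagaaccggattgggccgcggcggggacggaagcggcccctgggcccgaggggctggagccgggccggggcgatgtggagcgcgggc
HSP90B1 upstream stretch: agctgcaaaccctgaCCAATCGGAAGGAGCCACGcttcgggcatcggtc
HSP90B1 downstream stretch: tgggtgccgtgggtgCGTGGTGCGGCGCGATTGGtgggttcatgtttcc
XBP1: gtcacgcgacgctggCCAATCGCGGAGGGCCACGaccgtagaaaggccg
CALR: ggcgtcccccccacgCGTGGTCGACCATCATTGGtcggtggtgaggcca
HERPUD1: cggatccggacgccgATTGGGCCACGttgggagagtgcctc

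The matches began between 52 bases before the start (*XBP1*) and 225 bases before it (*CALR*). The element of *HSPA5* began 66 bases upstream, and *HSP90B1* held a forward match 194 and a reverse match 89 bases upstream. The matches in *SDF2L1* and *CALR* were also on the reverse strand, so they read CGTGG before ATTGG or CCAAT in the printed letters.

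**Figure D1:**
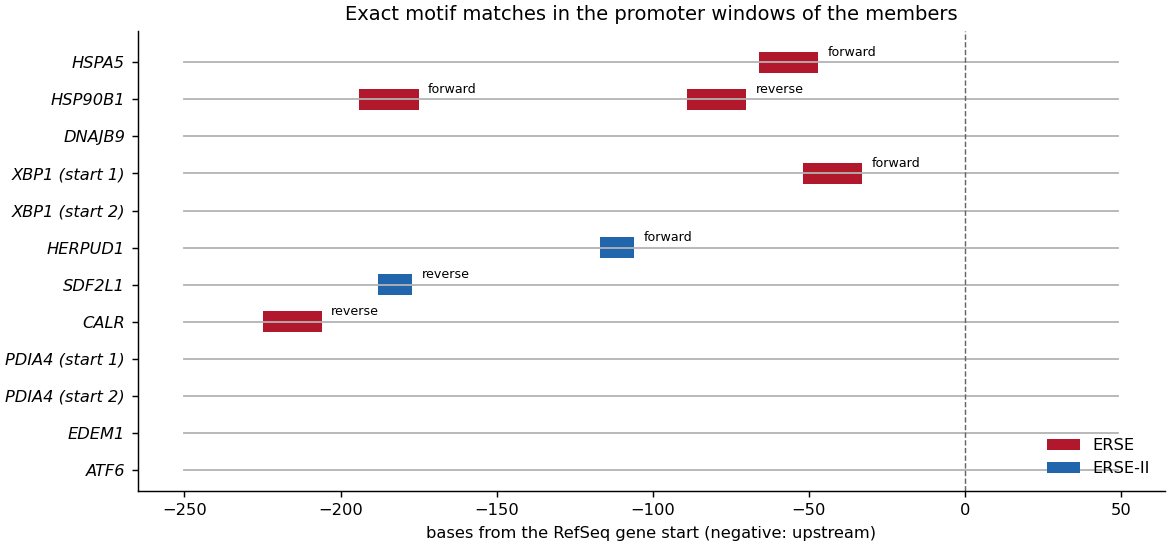
Exact matches to the ERSE (red) and ERSE-II (blue) in the 12 promoter windows, placed by bases from the RefSeq gene start (0, dashed), with the strand of the match relative to the gene. The matches fall in 6 of the genes, all upstream of the start, between 225 and 34 bases before it.

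The arrays held the defining markers of a sympathetic neuroblastoma line. Sympathetic markers were measured for 10 of 11 listed genes and all 10 passed the level filter, with *HAND2* at a mean log2 value of 14.0 and *DBH* at 12.7. Of 4 glial and Schwann cell markers measured, *AQP4* lay below the filter and *GFAP*, *S100B* and *SOX10* passed it at 6.84 to 7.86. Of 6 epithelial markers 1 passed, and of 7 fibroblast markers 5 passed, with *COL3A1* the highest. Over the 6 arrays the mean level ran from 12.3 to 12.4 for the sympathetic list, 6.45 to 6.59 for the glial, 7.26 to 7.41 for the fibroblast and 5.36 to 5.50 for the epithelial list. In bulk RNA, fewer cells of a type and less RNA per cell cannot be told apart.

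Inhibition of miR-137 gave no called difference in the 10 genes. Each gene was represented by its brightest probe set, kept where the mean log2 value reached 5.69, and compared in limma over 12639 genes. None of the 10 had an adjusted p under 0.05 (0 of 10; 0% of all genes), and in anti-miR-137 cells the mean was lower for 8 and higher for 2. Their median difference was -0.023 log2 units, against 0.0033 for all genes. Only *ATF6* had an unadjusted p under 0.05, as did 335 of the 12639 genes.

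*HSPA5*, the main ER chaperone and a brake on the stress sensors, measured 12.85, 12.84 and 13.32 in the anti-miR-137 arrays 1 to 3 and 12.85, 13.11 and 13.32 in the control arrays. The groups overlapped, and the arrays of number 1 and of number 3 were almost equal between treatments, while the anti-miR-137 array was lower by 0.27 log2 units within number 2. The difference between groups was -0.09 log2 units (SE 0.16, 95% confidence interval -0.47 to 0.29, n = 3 each, adjusted p = 1.00 in limma).

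*SDF2L1*, a lumenal partner of HSPA5 in chaperone complexes, had the same array order within number 2. It measured 9.83, 9.94 and 10.39 in anti-miR-137 and 9.77, 10.21 and 10.33 in control arrays. The anti-miR-137 array was lower by 0.27 within number 2 and higher by 0.065 and 0.063 within numbers 1 and 3. The groups overlapped, with a difference of -0.05 (95% confidence interval -0.49 to 0.39).

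*HSP90B1* (GRP94), the ER member of the HSP90 family, measured 13.92, 13.95 and 14.07 against 13.92, 13.99 and 14.08, a difference of -0.015 (95% confidence interval -0.18 to 0.15). *CALR*, a calcium-binding lectin chaperone of glycoproteins, measured 6.22, 6.51 and 6.12 against 6.36, 6.29 and 5.82, a difference of 0.13 (-0.25 to 0.51). *DNAJB9* (ERdj4), a J-domain partner that feeds clients to HSPA5, measured 10.21, 10.20 and 10.26 against 10.22, 10.18 and 10.33, a difference of -0.020 (-0.17 to 0.13). The groups overlapped in all of these, and *CALR* had the widest spread, as well as the lowest level relative to the filter.

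*PDIA4* (ERp72), which forms and exchanges disulfide bonds, measured 12.53, 12.70 and 12.81 in anti-miR-137 arrays. Its control arrays measured 12.69, 12.70 and 12.79, and the difference was -0.05 (95% confidence interval -0.24 to 0.15). The array of anti-miR-137 number 1 was the lowest of the 6, and the control array of the same number was the next lowest.

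Among the degradation factors, *HERPUD1*, which organises the ER ubiquitin ligase complex, measured 9.36, 9.64 and 9.65 against 9.40, 9.60 and 9.61 in control arrays. Its difference was 0.012 (95% confidence interval -0.23 to 0.25), and it turned to -0.0040 with the arrays centred on their medians. *EDEM1*, a mannosidase-like protein that sends misfolded glycoproteins to degradation, measured 9.54, 9.58 and 9.68 against 9.55, 9.70 and 9.64. The difference of -0.027 (-0.19 to 0.14) was small against the spread within groups.

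The transcription factors come last. *XBP1* measured 9.65, 9.80 and 9.90 in anti-miR-137 and 9.72, 9.78 and 9.90 in control arrays, a difference of -0.012 (95% confidence interval -0.21 to 0.18) that turned to 0.0093 with quantile normalization on top. *ATF6* measured 8.03, 7.99 and 8.09 in anti-miR-137 arrays and 8.17, 8.15 and 8.22 in control arrays. Every anti-miR-137 array lay below every control array, which held for 1 of the 10 genes and for 3.16% of all genes; none of the 10 lay wholly above, against 4.19% of all genes. Within numbers 1, 2 and 3 the anti-miR-137 array of *ATF6* was lower by 0.13, 0.16 and 0.13, and 13.2% of all genes were lower within each number. Group means were 8.04 ± 0.054 and 8.18 ± 0.039 (SD, n = 3 each). The difference was -0.14 (SE 0.060, 95% confidence interval -0.28 to -0.00090), with an unadjusted p of 0.049 and an adjusted p of 1.00 in limma, so it was not called. It stayed between -0.17 and -0.12 when any array was left out. Both other probe sets of *ATF6* also had lower mean values in anti-miR-137 cells (-0.18 and -0.26), although the groups overlapped in both and the dimmer failed the level filter.

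**Figure D2:**
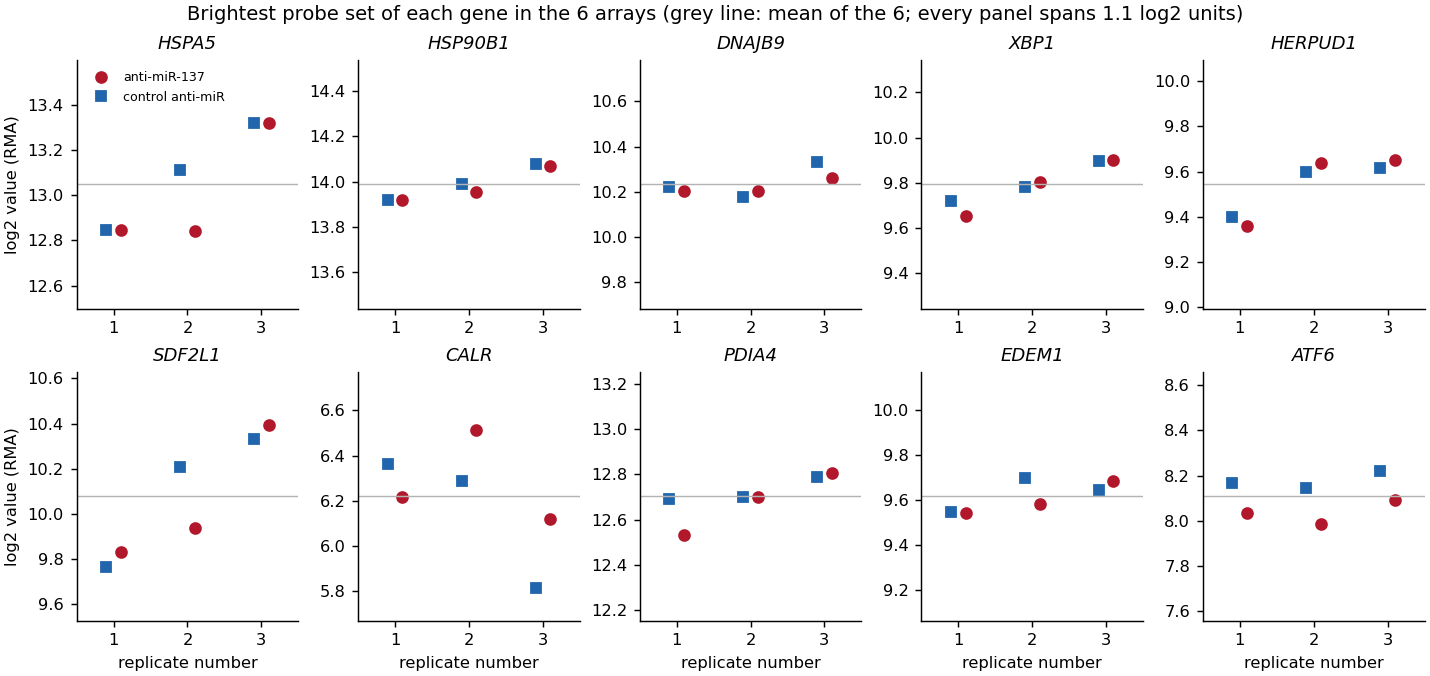
Log2 value of the brightest probe set of each of the 10 genes in the anti-miR-137 (red circles) and control (blue squares) arrays by replicate number; the grey line is the mean of the 6 arrays. *HSPA5* and *SDF2L1* are highest in both arrays of number 3, and the 3 anti-miR-137 points of *ATF6* lie below its 3 control points.

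For 9 of the 10 genes, all but *ATF6*, the difference between arrays numbered 3 and 1 was larger in size than that between treatments. How often this holds among all genes was not counted, so it is not shown to be particular to the 10. Whole arrays of numbers 3 and 1 also lay further apart, at a root mean square of 0.22 (anti-miR-137) and 0.23 (control) log2 units. Between treatments within numbers 1, 2 and 3 it was 0.13, 0.16 and 0.14. The difference between numbers also rests on fewer arrays. In all, 9 of the 10 had higher means in the number 3 arrays than in the number 1 arrays (*CALR* was the exception), and the median difference was 0.17 log2 units, against -0.012 over all genes. In 8 of the 10, both arrays of number 3 lay above both arrays of number 1, as in 28.9% of all genes. With treatment in the model, limma's F-test over the 3 numbers called none of the 10 (0 of 10, against 2.53% of all genes), although 5 had an unadjusted p under 0.05, as did 2966 of the 12639 genes. The single contrast of number 3 against number 1, added after the data were seen, passed for *HSPA5* and *SDF2L1* (2 of 10, against 8.23% of all genes).

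*HSPA5* stood at 12.85, 12.98 and 13.32 as the mean of the 2 arrays of numbers 1, 2 and 3. Number 3 exceeded number 1 by 0.47 log2 units, 1.39-fold (95% confidence interval 0.26 to 0.69 log2 units), with 0.47 among anti-miR-137 arrays and 0.48 among control arrays. Its adjusted p was 0.077 in the F-test and 0.034 for this contrast (limma). Number 2 exceeded number 1 by less than the error of the difference allows to be told from 0 (0.13, 95% confidence interval -0.09 to 0.35), and 3 minus 2 was 0.34 with an adjusted p of 0.19.

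*SDF2L1* had means of 9.80, 10.07 and 10.36. The difference between numbers 3 and 1 was 0.56 log2 units, 1.48-fold (95% confidence interval 0.32 to 0.81), with 0.56 among anti-miR-137 arrays and 0.57 among control arrays. The adjusted p was 0.074 in the F-test and 0.031 for the contrast in limma. Number 2 lay between, 0.27 above number 1 and 0.29 below number 3, with adjusted p of 0.33 and 0.25 in limma. Each number has 2 arrays, so leaving one out leaves a number with a single array, assumed to vary like the others. With an array of number 1 or 3 left out, the difference stayed between 0.40 and 0.54 for *HSPA5* and between 0.48 and 0.65 for *SDF2L1*. The contrast then called 3 of all genes without anti-miR-137 array 1, 2 without control array 1 and 0 without either array of number 3, so such fits could call almost nothing. The adjusted p of *HSPA5* and *SDF2L1* was 0.098 and 0.095, 0.20 and 0.18, 0.26 and 0.25, and 0.23 and 0.22 without anti-miR-137 array 1, control array 1, anti-miR-137 array 3 and control array 3 (limma). Without the level filter, 18244 genes were tested and the adjusted p of the contrast was 0.081 and 0.075. In the F-test itself both genes passed when an array of number 2 was left out, with adjusted p of 0.045 and 0.035 without the anti-miR-137 array and 0.034 and 0.030 without the control array (limma).

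The other genes differed less between numbers 3 and 1, and none was called. *HERPUD1* stood at 9.38, 9.62 and 9.63, so that number 1 lay below the others, with a difference of 0.26 between numbers 3 and 1 (F-test adjusted p = 0.11, limma). *XBP1* stood at 9.69, 9.79 and 9.90, a difference of 0.21 (F-test adjusted p = 0.19, limma). *PDIA4* and *HSP90B1* differed by 0.19 and 0.15, with F-test adjusted p of 0.31 and 0.30 in limma. *EDEM1* (0.12), *DNAJB9* (0.08) and *ATF6* (0.06) had confidence intervals that included 0. *CALR* went the other way on its brightest probe set, at 6.29 in number 1 and 5.97 in number 3, a difference of -0.32 (F-test adjusted p = 0.15, limma). The lower of the number 3 arrays was the control array at 5.82, close to the filter at 5.69.

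**Figure D3:**
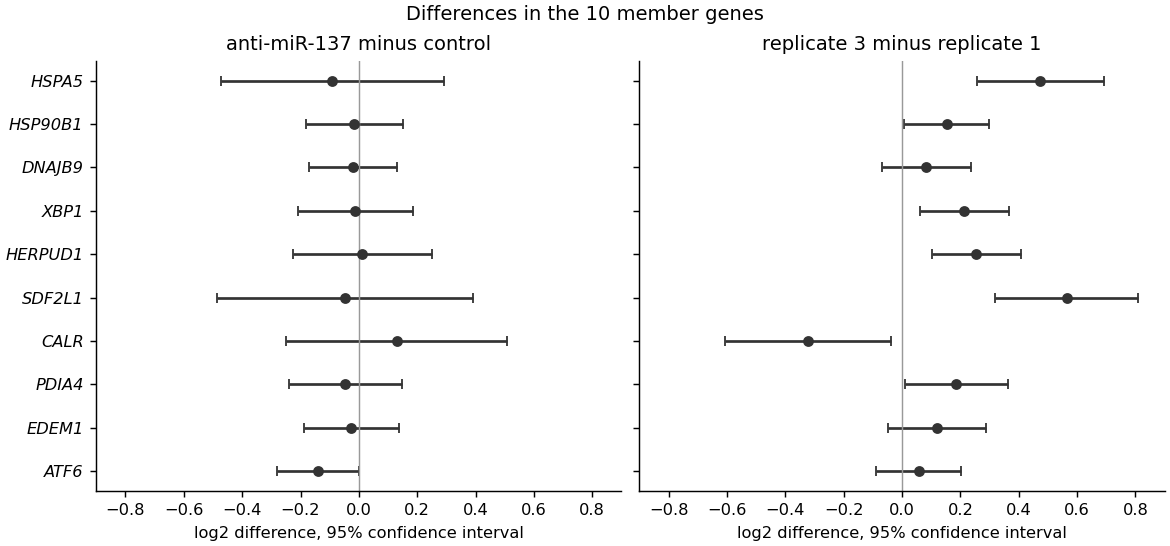
Differences in log2 units with 95% confidence intervals from limma for the 10 genes, anti-miR-137 minus control on the left and number 3 minus number 1 on the right. Treatment intervals include 0 for all but *ATF6*, and the number 3 values are highest for *SDF2L1* (0.56) and *HSPA5* (0.47).

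Probe sets of a gene share their transcript and are not replicates, but they show how far a value depends on the part of the mRNA that is read. Of the 35 probe sets, 28 passed the level filter, and none of the 35 passed the F-test over numbers when every one of 49393 probe sets was tested (0% of all). Among the 28, 26 had higher means in number 3 than in number 1 and 21 had a lower anti-miR-137 mean. These counts weigh *HSPA5* and *HSP90B1* most, with 6 and 7 probe sets.

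All 6 probe sets of *HSPA5* were higher in both number 3 arrays than in both number 1 arrays, with differences from 0.32 to 0.89 log2 units. Its brightest probe set, used above, gave 0.47, and the probe sets with means of 10.3, 9.77 and 9.17 gave 0.87, 0.89 and 0.88. Without the probe sets that the manufacturer marks as shared or cross-hybridising, the gene was thus read at 0.87 (F-test adjusted p = 0.052, limma). The same 3 probe sets gave the widest gap between treatments within number 2, with the anti-miR-137 array lower by 0.63, 0.55 and 0.68, against 0.07, 0.07 and 0.18 within number 1 and 0.10, 0.08 and 0.13 within number 3. The probe set with a mean of 8.46 gave only 0.02 there. Their treatment differences ran from -0.33 to 0.05, none called.

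In *HSP90B1* the probe sets fell into differing patterns. The brightest, with a mean of 14.0, and those with means of 12.7 and 11.6 were higher in both number 3 arrays than in both number 1 arrays, by 0.15, 0.16 and 0.22. The other 4 had an anti-miR-137 array 3 that was no higher than anti-miR-137 array 1, with changes of -0.03, -0.06, -0.09 and -0.03, while control array 3 exceeded control array 1 by 0.34, 0.21, 0.07 and 0.18. In 3 of the 7 every anti-miR-137 array lay below every control array, as in 2.93% of all 49393 probe sets, with differences of -0.17, -0.22 and -0.35, and an adjusted p of 1.00 each in limma. Their unadjusted p was 0.080, 0.040 and 0.015 in limma. Within numbers 1, 2 and 3 the differences were -0.08, -0.08 and -0.35 for the first, -0.11, -0.26 and -0.27 for the second, and -0.25, -0.34 and -0.46 for the third. These 3 are among the 4 just described, so the patterns share values. The brightest probe set of the gene showed no such gap (-0.015). The manufacturer marks the first and second of the 3 as cross-hybridising and the brightest as shared, but not the third of the 3. Without marked probe sets the gene was read at -0.052 for treatment.

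The probe sets of the other genes that passed the filter mostly ran together between numbers. The 3 kept ones of *HERPUD1* gave 0.26, 0.26 and 0.27 for number 3 minus number 1, and the 3 of *PDIA4* gave 0.19, 0.19 and 0.26. The 2 of *CALR* disagreed (-0.32 and 0.18), so no direction can be given for that gene. *EDEM1* rested on 1 of 5 probe sets, and *XBP1* and *SDF2L1* had a single probe set each.

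**Figure D4:**
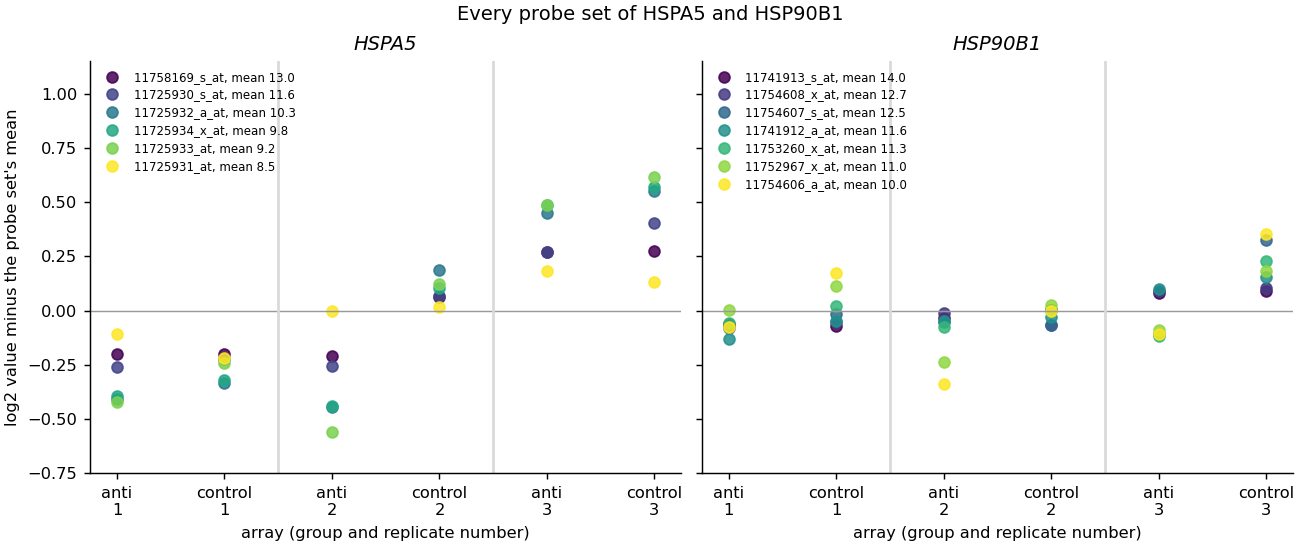
Each probe set of *HSPA5* (left) and *HSP90B1* (right) as its log2 value minus its own 6-array mean, by array; the legend gives the manufacturer's identifier and the mean. All 6 of *HSPA5* are high in both number 3 arrays, and in *HSP90B1* 4 of 7 are higher in array 3 than in array 1 in control but not in anti-miR-137 cells.

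The genes around the 10 in the same pathways were read from 6 lists. None of their tested genes was called for treatment, as for all genes. The 2 genes named for each list had its smallest unadjusted p, whatever their direction. Of 26 other ER folding factors, 11 were higher and 15 lower after miR-137 inhibition (median -0.0016). *FKBP2* had -0.24 and *SIL1*, a nucleotide exchange factor of HSPA5, -0.18, but each value came mainly from a single number: *FKBP2* had -0.10, -0.64 and 0.03 within numbers 1 to 3, and *SIL1* -0.54, -0.03 and 0.03. Of 20 genes of ER-associated degradation, 11 were higher (median 0.014), and *DERL3* had 0.12 and *AUP1* 0.11. Of 14 sensors and regulators 9 were higher (median 0.013), with *WFS1* at 0.14 and *CREB3L2*, one of the lower ones, at -0.12. Of 12 genes of the PERK and ATF4 arm 5 were higher (median -0.0096), with *CEBPB* at 0.11 and *PPP1R15B* at -0.08. Of 21 translocation and glycosylation genes 13 were higher (median 0.014). *SSR3* had 0.06, and *DDOST*, a subunit of the oligosaccharyltransferase, was among the lower ones at -0.31, with -0.08, -0.75 and -0.10 within numbers 1 to 3. Of 18 cytosolic and mitochondrial chaperones 8 were higher (median -0.019), with *TRAP1* at 0.07 and *HSPD1* at -0.12.

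Between numbers 3 and 1, the lists differed in their medians. Cytosolic and mitochondrial chaperones had the highest list median at 0.25, with 15 of 18 higher in number 3, and limma's F-test called 3 of them, against 2.53% of all genes. These were *HSPA1B* (0.64, adjusted p = 0.033) and *HSPA1A* (0.63, adjusted p = 0.036), the inducible HSP70 genes, and the HSP70 and HSP90 adaptor *STIP1* (0.50, adjusted p = 0.045), named after its values were seen. With any 1 of the 4 arrays of numbers 1 and 3 left out, a number holds a single array and the F-test in limma called 0 of all genes, so these fits say little of single genes. With no level filter it called 2 genes. The contrast of 3 against 1 called 7 of the 18, all higher, against 8.23% of all genes. *HSPA1A* and *HSPA1B* are near-identical and their probe sets may read both mRNAs. In the PERK and ATF4 arm 9 of 12 were higher in number 3 (median 0.14, 0 called). *DDIT4* and *SESN2* had the smallest unadjusted p of this list in the F-test. *SESN2* differed by 0.33 between numbers 3 and 1. *DDIT4* differed by 0.21, with a confidence interval that included 0. Its means of 10.45, 10.10 and 10.66 were lowest in number 2.

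Other ER folding factors had 17 of 26 genes higher in number 3, a median of 0.065 and none called by the F-test. *MANF*, a secreted ER stress protein that binds HSPA5, had 0.38 and *TXNDC11* 0.32, with F-test adjusted p of 0.071 and 0.075 in limma. The contrast of 3 against 1 passed for both (adjusted p = 0.030 and 0.041 in limma) and for *FKBP7*, which was lower (-0.34, adjusted p = 0.041) and is named after its values were seen. ER-associated degradation had 12 of 20 higher (median 0.037), with *UFD1* at 0.38 and *DERL2* at 0.24, and the contrast passed for *UFD1* (adjusted p = 0.028 in limma). Sensors and regulators had 5 of 14 higher (median -0.056), with *NFYC* at 0.28 and *CREB3L4* at -0.30, and translocation and glycosylation 11 of 21 (median 0.0042), with *RPN1* at 0.26 and *SSR4* at -0.26. The F-test called no gene of these 4 lists or of the PERK and ATF4 arm, and the contrast called none of the sensors, the PERK and ATF4 arm or the translocation list.

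**Figure D5:**
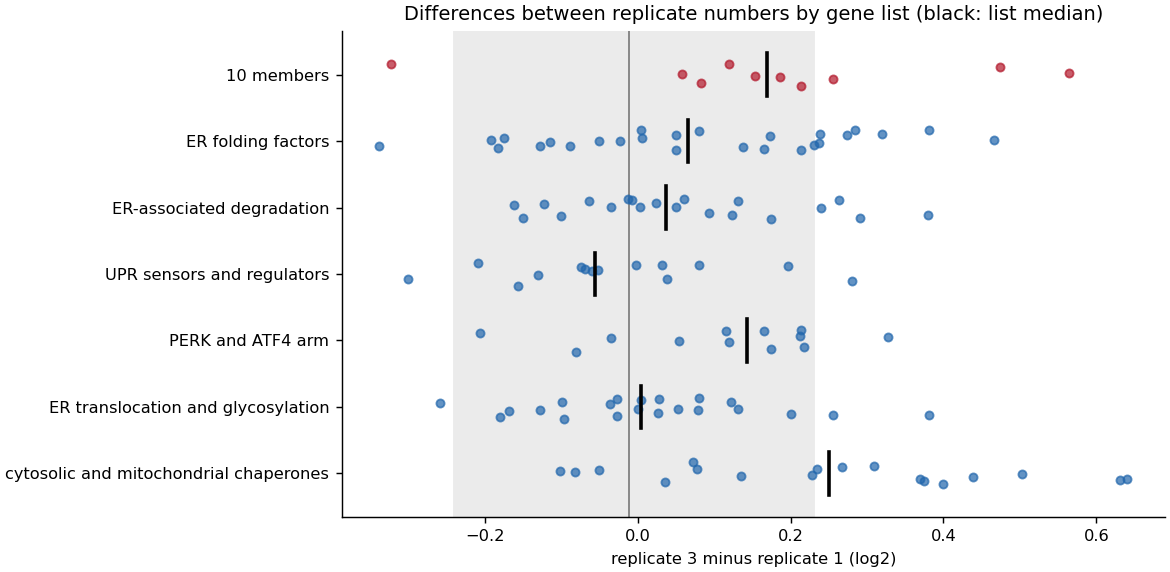
Difference of each tested gene between numbers 3 and 1 in log2 units, for the 10 members (red) and 6 related lists (blue), with list medians in black; the grey band spans the 10th to 90th percentile of all 12639 genes and the grey line their median. List medians run from -0.056 for sensors and regulators to 0.25 for cytosolic and mitochondrial chaperones, with 0.17 for the members.

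Genes that hold the printed elements did not all share the pattern of *HSPA5*. Of 25 genes with an ERSE in a window, 15 were tested, and 7 of them were higher in number 3 than in number 1 (median -0.060, 0 called). Without the members, 4 of 11 were higher (median -0.086). Among these 11, the stress-induced folding factor *CRELD2* had 0.23 and the disulfide isomerase *PDIA6* 0.17, while the oxidase *ERO1B* had -0.18 and the lectin chaperone *CANX* 0.05. *ALG12* had 0.013, and *FICD* and *SERP1* were lower, at -0.086 and -0.060. Of 19 genes with an ERSE-II, 14 were tested and 9 were higher (median 0.044, 0 called). Without the members, 7 of 12 were higher (median 0.0275), among them the HSP70-like ER chaperone *HYOU1* (0.28). The largest rises among these 12 were those of *SHCBP1* (0.69) and *GYS1* (0.46), and the largest fall that of *NUCB1* (-0.19). Of 253 genes with the UPRE, 117 were tested, 67 were higher (median 0.030) and the F-test called 5, against 2.53% of all genes. For treatment, 5 of the 15 ERSE genes and 7 of the 14 ERSE-II genes were higher after miR-137 inhibition, with none called. The genes named here hold the motif and were picked after their values were seen. *SHCBP1*, *GYS1* and *NUCB1* were picked for the size of their differences, and the others as known ER proteins.

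The array profile closest to that of *HSPA5* belonged to genes outside the ER lists. Likeness was the root mean square difference of deviations from the 6-array mean, over 6 arrays. The closest were *FKBP5* (0.039 log2 units), a co-chaperone of steroid receptors, *SH3PXD2A* (0.040), *NEURL1B* (0.041), *RIT2* (0.041) and *RASSF2* (0.043). Among the members, *SDF2L1* was rank 24 at 0.065, *XBP1* followed at rank 1190 (0.15), and *CALR* was rank 12393 (0.41). The profile of *HSPA5* itself had a root mean square of 0.21, and the measure favours genes that vary by a like amount.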

How the data were processed

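Total RNA of 6 samples was measured on 1-colour oligonucleotide arrays. The deposited log2 values were made by the authors with RMA in R 3.0.1, per the submitters' processing notes; RMA makes the arrays' distributions alike, so a shift of all transcripts together cannot be seen. Array package and annotation versions are not given in the sources used here. Of 49393 non-control probe sets, 45278 had 1 gene symbol, 1333 several and 2782 none. Probe sets were kept at or above the 40th percentile of mean log2 value (5.69), and the brightest was taken for each gene, which gave 12639 genes. Array medians lay between 6.39 and 6.43, and RNA integrity numbers between 9.5 and 9.8. No arrays held the same values.

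The treatment difference was fitted in limma (version 3.58.1, under R 4.3.3; lmFit and eBayes, two-sided tests), and replicate numbers were compared by its F-test with treatment as a term, adjusted by Benjamini-Hochberg over all genes at 0.05. The contrast of number 3 against 1 as a call was added after seeing the data. Every member was named, with 2 genes per list and comparison by smallest p and the 5 genes most like *HSPA5*. Members and lists were chosen with earlier results of these data known. Sequences are RefSeq's (GRCh38.p14). Scripts were tested on simulated data. Same-numbered arrays deviated together in numbers 1 and 3 (correlations of 0.55 and 0.65 over genes) but not in number 2 (0.073), and the main fit did not take numbers as pairs. The low correlation does not show that number 2 was unpaired. Its 2 arrays were nearest to each other (root mean square difference 0.163), if narrowly, as control array 2 lay 0.164 from anti-miR-137 array 1. Differences between numbers stay in the error of the main treatment fit and widen its intervals for genes that differ between numbers. With number as a block, 815 genes had an unadjusted treatment p under 0.05 in limma, against 335 in the main fit, and 0 were called in either. Filters, probe set choice, normalization, variance prior, array weights, the replicate block, RNA integrity and single arrays were varied.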

Additional observations from a re-analysis of the deposited data

How the results depend on the processing

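No alternative called a member for treatment: 0 of the tested members passed with no filter, a stricter filter, averaged probe sets, no probe sets marked for cross-hybridisation, another normalization, a variance trend, array weights, the RNA integrity covariate, any array left out, or the replicate block (0 genes called, 815 at an unadjusted p under 0.05). Signs of these uncalled differences turned for *XBP1* with quantile normalization (0.0093), *HERPUD1* with median centring (-0.0040), *DNAJB9* with array weights (0.0023), and with the integrity covariate for *HSPA5* (0.0085), *HSP90B1* (0.020), *XBP1* (0.061), *SDF2L1* (0.12), *PDIA4* (0.035) and *EDEM1* (0.030). With an array left out they ran from -0.25 to 0.024 (*HSPA5*), -0.059 to 0.026 (*HSP90B1*), -0.053 to 0.024 (*DNAJB9*), -0.070 to 0.053 (*XBP1*), -0.057 to 0.11 (*HERPUD1*), -0.22 to 0.067 (*SDF2L1*), -0.040 to 0.23 (*CALR*), -0.11 to 0.028 (*PDIA4*) and -0.068 to 0.0081 (*EDEM1*).

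Between numbers no member changed direction, but calls depended on the settings. The F-test called 320 genes, and 2 with no filter, 1099 at the 60th percentile, 1797 with a variance trend, 637 with array weights, 526 without the treatment term and 0 to 540 with an array left out; members called were 0, and 3 at the 60th percentile, 1 with averaged probe sets, 1 under array weights, 5 under the trend, and 0 to 2 over the fits that drop an array. The contrast of 3 against 1 called 1040 genes (169 with no filter, 1657 at the 60th percentile, 2305 with the trend, 0 to 1441 with an array left out) and 2 members (0, 4, 6 and 0 to 2 in the same settings). Filters change how many genes are adjusted over; other causes were not tested.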
